A study of Homo sapiens with 9 samples.

Results

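Of 9 human oesophageal adenocarcinoma cell lines, 3 gave RNA-seq libraries in which HNF4A exceeded 100 CPM (the count of a gene scaled to the library's total), and these HNF4A-high libraries, labelled OE19, SK-GT-4 and ESO-51, were set against the other 6, in which HNF4A was under 25 CPM. The lines of the other side were OACP4_C, FLO-1, ESO-26, OE33, OAC_5.1_C and JH_EsoAd1. All 9 are established lines labelled as oesophageal adenocarcinoma, for which the labels name the gastric cardia as source. None was treated, and no genotype is labelled, so each side is defined by HNF4A alone. Each line gave 1 column of gene counts. The series' design text speaks of 3 technical replicates of each line, without saying how they enter that column. The 3 libraries are therefore different cell lines and not replicates of a condition. Since HNF4A, a measured value, chose the sides, every difference between them is given as a description with no test.

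HNF4A is a nuclear receptor that binds DNA as a homodimer and is required for the differentiation of liver, pancreatic and gut epithelium. In the intestine it acts with its paralogue HNF4G and with the caudal factors CDX1 and CDX2 on genes of the enterocyte brush border, the array of microvilli through which nutrients are absorbed. The normal oesophagus is lined by squamous epithelium that lacks this programme, while Barrett's oesophagus, from which oesophageal adenocarcinoma can arise, is a columnar epithelium with gastric and intestinal features.

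The DNA that HNF4 receptors favour is a repeated half-site, of which CAAAGTCCA is a well-known core. As examples, 4 promoters that hold this core or the looser form CAAAGNNCA are shown. Their genes were called higher in all 3 libraries by the rule given below. Of 41 such genes with a matched promoter, 11 held either form. Each line gives the 250 bases before the RefSeq gene start (GRCh38.p14), 5′ to 3′ on the strand of the gene, with matches on either strand in capitals.
MYO1A, chr12:57050130-57050379, minus strand: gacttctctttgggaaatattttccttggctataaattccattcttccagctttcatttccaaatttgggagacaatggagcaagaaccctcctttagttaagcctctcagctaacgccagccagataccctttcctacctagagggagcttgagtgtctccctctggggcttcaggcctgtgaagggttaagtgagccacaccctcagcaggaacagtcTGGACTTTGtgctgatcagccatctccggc
GPR35, chr2:240605180-240605429, plus strand: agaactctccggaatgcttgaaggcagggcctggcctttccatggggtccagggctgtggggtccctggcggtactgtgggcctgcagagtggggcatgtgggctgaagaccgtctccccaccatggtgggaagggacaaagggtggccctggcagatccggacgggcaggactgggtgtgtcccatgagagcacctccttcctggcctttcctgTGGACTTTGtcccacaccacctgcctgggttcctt
MUC13, chr3:124934752-124935001, minus strand: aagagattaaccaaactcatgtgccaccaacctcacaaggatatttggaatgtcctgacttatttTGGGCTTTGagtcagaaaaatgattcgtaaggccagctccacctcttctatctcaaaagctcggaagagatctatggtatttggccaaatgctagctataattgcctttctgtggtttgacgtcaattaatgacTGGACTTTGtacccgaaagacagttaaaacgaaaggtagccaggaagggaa
CLRN3, chr10:127892942-127893191, minus strand: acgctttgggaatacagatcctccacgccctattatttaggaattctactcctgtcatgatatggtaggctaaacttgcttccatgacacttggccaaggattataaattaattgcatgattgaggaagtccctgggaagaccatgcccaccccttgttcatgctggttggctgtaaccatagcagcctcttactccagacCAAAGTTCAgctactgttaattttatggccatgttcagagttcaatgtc
The capitals TGGACTTTG in MYO1A, GPR35 and MUC13 are CAAAGTCCA read on the other strand, and they begin 30, 35 and 51 bases before the gene start. MUC13 holds a further match, TGGGCTTTG, which begins 185 bases before the start. In CLRN3 the match is CAAAGTTCA, which begins 49 bases before the start. MYO1A encodes a brush border myosin, GPR35 a G protein-coupled receptor of the gut, MUC13 a membrane mucin and CLRN3 a membrane protein of the clarin family. A match of letters is a description and not a binding site.

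Read depth did not separate the sides. The count table held 29959895 counts for OE19, 31186139 for SK-GT-4 and 40683038 for ESO-51, and from 16801179 (ESO-26) to 69881539 (FLO-1) for the other 6. Mitochondrial genes took 1.70%, 2.67% and 4.68% of counts in the 3 libraries, against 1.48% to 24.7% in the other 6. ERBB2, the gene of the receptor HER2, is known to be amplified in the line OE19, yet it was 185 CPM in the library of that label, with 18325 CPM in the SK-GT-4 library and 3515 CPM in ESO-51. In the other 6 libraries ERBB2 was 10.4 CPM (ESO-26) to 1387 CPM (OACP4_C), with 149 CPM in OE33. Names of lines on both sides therefore stand throughout for the libraries so labelled.

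HNF4A was 124 CPM in OE19 (Poisson 95% interval 119.7 to 128), 138 CPM in SK-GT-4 (134 to 142) and 167 CPM in ESO-51 (164 to 171). Intervals of this kind, and the limit of 3 counts given where a count is 0, cover counting error only. On the other side HNF4A was 19.6 CPM in JH_EsoAd1, 7.91 CPM in FLO-1, 2.10 CPM in OAC_5.1_C, 7 counts in OACP4_C, 1 count in ESO-26 and 0 counts in OE33, where 3 counts correspond to 0.113 CPM. OE19 was thus the library nearest the threshold from above and JH_EsoAd1 the nearest from below. On the log2(CPM + 1) scale used for all differences, HNF4A averaged 7.16 ± 0.22 (SD, n = 3) and 1.57 ± 1.84 (SD, n = 6). These values chose the sides and are no result. In bulk RNA a smaller number of cells that express a gene and less RNA per cell cannot be told apart.

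The name columnar fitted the 3 libraries in part. With HNF4A left out, 8 columnar markers summed to 1437 to 3970 CPM in the 3 libraries and to 3.89 to 70.3 CPM in the other 6, and 3 of the 8 exceeded 1 CPM in all 3. The intestinal cadherin CDH17 and the lectin LGALS4 were high in all 3. The villin gene VIL1, of the microvillar core, was 0.463, 341 and 283 CPM in OE19, SK-GT-4 and ESO-51. The OE19 value lay within the 0.115 to 1.96 CPM of the other 6. The gastric mucin gene MUC5AC was 1542, 277.5 and 0.133 CPM in the 3, against up to 63.4 CPM (JH_EsoAd1) in the other 6. TFF1, a gastric trefoil peptide, was 12.2 CPM, 341 CPM and 0.0222 CPM in the same order, against up to 21.4 CPM (FLO-1). Both genes thus overlapped between the sides. KRT20, a keratin of differentiated gut cells, was at most 11.5 CPM.

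Some epithelial genes were low in OE19 and others were not. The epithelial splicing regulator ESRP1 was 0.107, 313 and 421 CPM in OE19, SK-GT-4 and ESO-51, and the epithelial transcription factor GRHL2 was 0.0713, 128 and 167 CPM. Vimentin (VIM), an intermediate filament of mesenchymal cells, was 1679 CPM in OE19 and under 0.1 CPM in SK-GT-4 and ESO-51. The adhesion gene EPCAM was nevertheless 355, 376 and 1335 CPM in OE19, SK-GT-4 and ESO-51. The simple epithelial keratins were highest in OE19 of the 3, with KRT8 at 3342, 2481 and 1368 CPM and KRT18 at 646, 410 and 269 CPM. The 3 are therefore called the HNF4A-high libraries here.

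Summed markers of each other cell type were at most 27.5 CPM in the 3 libraries, and their part in the results was not tested. The 5 squamous markers summed to 2.96 to 9.07 CPM in the 3 libraries and to 0.792 to 1002 CPM in the other 6. The 6 fibroblast markers summed to 1.92 to 27.5 CPM against 2.92 to 330 CPM. COL3A1 was at 0 counts in all 3, but COL1A1 was 1.75, 26.1 and 4.65 CPM in OE19, SK-GT-4 and ESO-51. In the other 6, COL1A1 was 0.577 to 46.5 CPM, so its sides overlapped. The 5 haematopoietic markers summed to 1.16 to 3.36 CPM against 1.08 to 25.4 CPM. In the 3, the leukocyte gene PTPRC was at most 0.161 CPM, CD14 at most 2.96 CPM (OE19) and LCP1 at most 2.67 CPM (ESO-51). The 2 endothelial markers in the table summed to 0.214 to 1.56 CPM against 0 to 30.2 CPM.

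**Figure D1:**
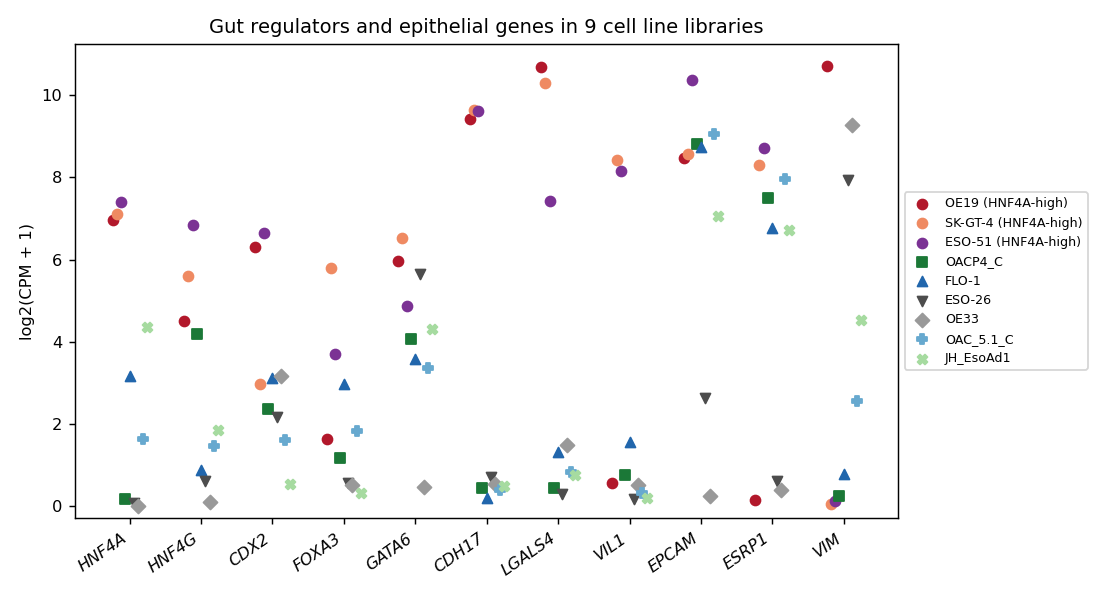
Level of 11 regulator and epithelial genes, as log2(CPM + 1) on the vertical axis, in each of 9 libraries (1 point per library, circles for the HNF4A-high 3). HNF4G, CDH17 and LGALS4 separated the sides, whereas VIL1, ESRP1 and VIM placed OE19 apart from SK-GT-4 and ESO-51.

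A gene was called where the sides did not overlap and the lowest library of the higher side lay at least 1 log2 unit above the highest library of the lower side. Among 15786 genes that reached 1 CPM in at least 3 libraries, with HNF4A left out, 55 (0.348%) were called higher in the 3 HNF4A-high libraries and 24 (0.152%) were called lower. With no minimum gap, 362 genes (2.29%) lay higher in all 3 than in any of the 6, and 334 (2.12%) lay lower. The median difference of means over all genes was -0.04, with percentiles 10 and 90 at -0.95 and 0.85. Of 358 genes with a difference of at least 2, the sides did not overlap for 126, and of 354 genes with a difference of -2 or below they did not overlap for 83.

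The counts depended on how many libraries were used and on which. The rule asks less when a library is left out, since fewer libraries have to be separated. Both counts rose whichever library was left out, to between 58 and 108 higher and between 26 and 73 lower. Without OE19 there were 108 genes called higher and 73 lower, and without ESO-51 94 and 73. Without ESO-26 the lower calls numbered 47, and without OACP4_C 37. The deposited FPKM gave 56 called higher and 14 called lower, on a scale where the median difference of all genes was 0.30.

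**Figure D2:**
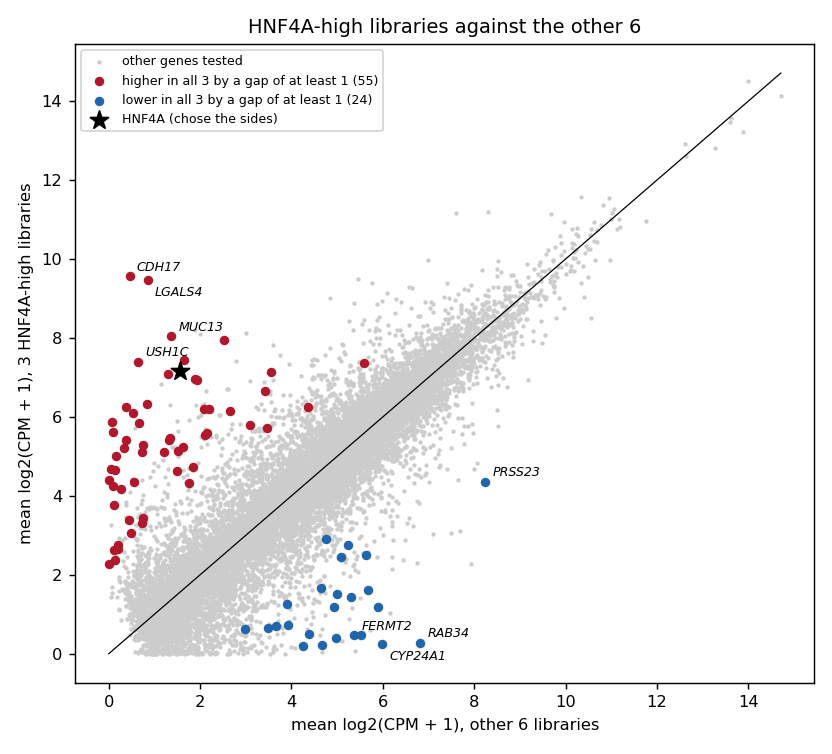
Mean log2(CPM + 1) over the 3 HNF4A-high libraries (vertical) against the mean over the other 6 (horizontal), 1 point per gene, with the line of equality. The 55 genes called higher lie mostly under 3 on the horizontal axis, and the 24 called lower lie mostly near 0 to 3 on the vertical axis.

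In overall expression the 3 libraries were about as close to the others as to each other. Across 15786 genes the median Pearson r was 0.806 over the 3 pairs within the HNF4A-high libraries, 0.792 over the 18 pairs between sides and 0.796 over the 15 pairs within the other 6. Genes are not independent replicates, and the pairs share libraries. OE19 was closest to OACP4_C (r = 0.821), ESO-51 also to OACP4_C (r = 0.843), and SK-GT-4 to ESO-51 (r = 0.839).

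Among the transcription factors of the hepatocyte nuclear factor group, HNF4G and PPARA were among those that followed the division. HNF4G, the paralogue of HNF4A, was 21.7, 47.3 and 113 CPM in the 3 libraries and at most 17.2 CPM (OACP4_C) in the others, so the sides did not overlap but the gap was only 0.31. PPARA, a receptor of fatty acids, also did not overlap, at 207, 81.4 and 90.1 CPM against at most 57.0 CPM (OACP4_C).

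Partners of HNF4A in the liver were uneven. FOXA3, a pioneer factor, was 2.10, 54.2 and 11.9 CPM in OE19, SK-GT-4 and ESO-51, with FLO-1 at 6.79 CPM above OE19. FOXA2 was 0.855, 32.8 and 15.4 CPM, and PROX1 2.78, 23.8 and 4.74 CPM against 6.94 CPM in JH_EsoAd1. Of 13 measured genes in the list of hepatocyte nuclear factors and cofactors, none was called lower, and the median difference was 1.25. The gene lists were chosen with earlier results of these data known. The share over all genes beside a list's count is therefore a description only. Measured members are those at 1 CPM or more in at least 3 libraries. A member can reach this through the 3 HNF4A-high libraries alone and then has to be higher there. Counts of members called higher or not overlapping upward include such members. The median over all members with a count is therefore given too, here 1.21 over 18. The antisense RNA HNF4A-AS1 was at most 1.13 CPM, and since the strand setting is not given its reads cannot be told apart from those of HNF4A.

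The caudal factors did not follow HNF4A. CDX2, which specifies intestinal identity, was 78.4, 6.85 and 99.9 CPM in OE19, SK-GT-4 and ESO-51, and the value of SK-GT-4 lay below OE33 (7.99 CPM) and FLO-1 (7.71 CPM). CDX1 was 1.11 CPM, 0 counts and 84.9 CPM in the same order, and the intestinal homeobox gene ISX was 56.8 CPM in ESO-51 and 0 counts in both OE19 and SK-GT-4. GATA6, a zinc finger factor of gut endoderm, was 61.2, 91.5 and 28.3 CPM, with ESO-26 at 49.4 CPM between them. ELF3 and KLF5, epithelial factors, overlapped as well, since ELF3 was 178 to 260 CPM in the 3 libraries and 222 CPM in OACP4_C, and KLF5 207.5 to 459 CPM against 379 CPM in JH_EsoAd1. PDX1 was the 1 gene of 14 in this list whose sides did not overlap (2.29% of all genes upward), at 1.89, 4.31 and 3.87 CPM against at most 1.59 CPM. None of the 14 was called. The median difference was 1.32, but 0.73 without SK-GT-4 and 0.86 over all 20 members with a count.

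The widest gaps belonged to genes of the intestinal cell surface. CDH17, a cadherin of enterocytes, was 680.5, 798 and 786 CPM in OE19, SK-GT-4 and ESO-51, and from 0.147 to 0.634 CPM in the other 6. All 3 libraries lay 8.70 log2 units or more above the highest other, ESO-26, and the log2 means were 9.56 ± 0.13 (SD, n = 3) and 0.46 ± 0.17 (SD, n = 6). LGALS4, a galectin of the gut, was 1655, 1267 and 171 CPM against at most 1.77 CPM (OE33). ESO-51 was the lowest of the 3 by 2.88 log2 units and still 5.96 above the other side. GPA33, an antigen of intestinal epithelium, was 43.9, 57.4 and 43.2 CPM, with at most 0.373 CPM (FLO-1) elsewhere and 0 counts in OE33 and JH_EsoAd1.

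CLDN2, a pore-forming claudin of leaky epithelia, was 41.9, 62.3 and 27.8 CPM against at most 0.720 CPM. CLRN3 was 11.8, 47.7 and 13.7 CPM, and 4 of the other 6 had 0 counts of it. Of 22 measured genes for intestinal adhesion and surface proteins, 5 were called higher (0.348% of all genes) and 7 did not overlap upward (2.29% of all genes). Of those called, CDH17, GPA33, CLDN2 and CLRN3 were under 1 CPM in each of the other 6. They were measured through the 3 HNF4A-high libraries alone and so had to be higher there. No member was called lower, and the median difference was 2.65, the same over all 24 members with a count. The tetraspanin gene TSPAN8 and TM4SF5 were the 2 that did not overlap without being called, TSPAN8 at 280, 609 and 150 CPM against 98.4 CPM in FLO-1. Without OE19 the median difference of this list was 1.39.

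Brush border genes formed the other leading group. USH1C (harmonin), ANKS4B, MYO7B, CDHR2 and CDHR5 encode proteins known to link the tips of neighbouring microvilli. All 5 were called higher (0.348% of all genes), while CALML4 of the same complex, given below, overlapped between the sides. These genes were grouped with their values in view. USH1C was 160, 146 and 199 CPM in OE19, SK-GT-4 and ESO-51 against at most 2.83 CPM (OE33). ANKS4B was 27.8, 22.8 and 23.3 CPM against at most 0.113 CPM. The level of these scaffolds was even among the 3, whereas the motor and the cadherins of the complex were not.

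MYO7B, the motor, was 145, 23.6 and 120 CPM in OE19, SK-GT-4 and ESO-51, against at most 1.54 CPM (JH_EsoAd1). The cadherin CDHR2 was 568, 3.95 and 14.0 CPM in OE19, SK-GT-4 and ESO-51, against at most 1.09 CPM. CDHR5 was 63.3, 42.5 and 14.1 CPM against at most 3.15 CPM. MYO1A, whose promoter is printed above, was 9.55, 114.5 and 3.89 CPM in OE19, SK-GT-4 and ESO-51, against at most 0.415 CPM.

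CALML4, the light chain of the same complex, was 37.9, 20.5 and 40.9 CPM, but ESO-26 held 29.4 CPM, so its sides overlapped. Of 17 measured brush border and enterocyte genes, 5 were called higher (0.348% of all genes) and none lower. Those called were USH1C, MYO7B, CDHR2, CDHR5 and MYO1A, and ANKS4B is not in this list. MYO1A was measured through the 3 HNF4A-high libraries alone. The median difference over these 17 was 3.47, but 1.33 over all 29 members with a count. The score of a list is the median over all its members with a count of the log2 value minus the gene's mean over 9 libraries. That of the brush border list was 0.52 in OE19, 0.12 in SK-GT-4 and 0.92 in ESO-51, and -0.68 to -0.35 in the other 6. Other enterocyte genes were patchy: the protease gene DPP4 was 383, 5.56 and 197 CPM, and the guanylate cyclase receptor gene GUCY2C was 4.38, 0.0965 and 132 CPM.

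**Figure D3:**
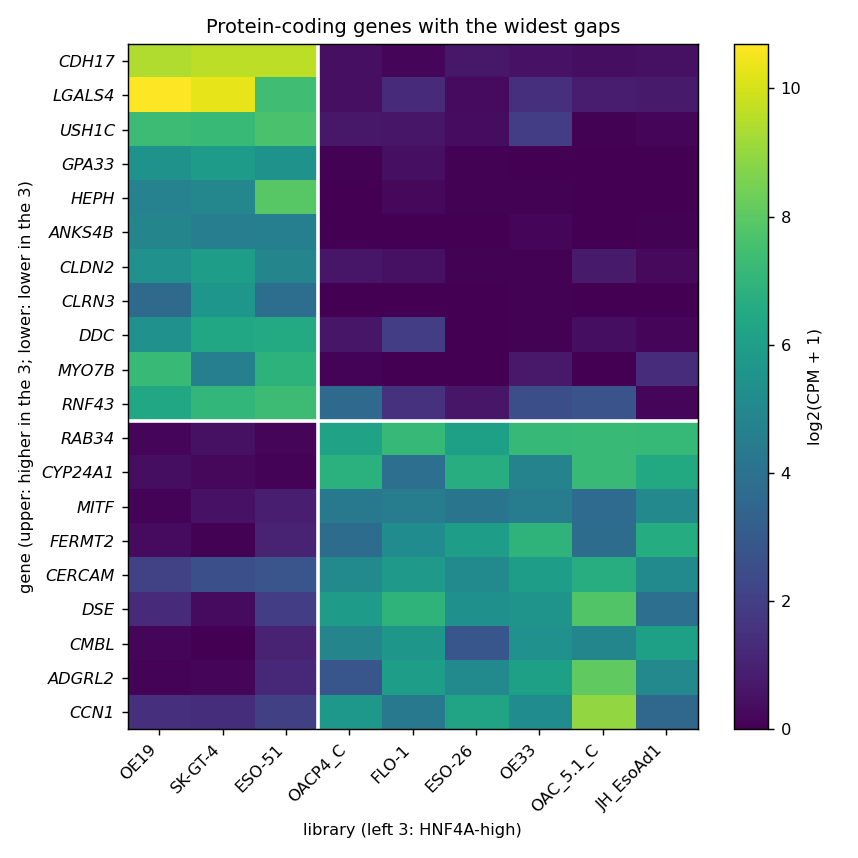
Colour gives log2(CPM + 1) in 9 libraries for 11 protein-coding genes called higher and 9 called lower, among those with the widest gaps, each at 5 CPM or more in every library of its higher side. The upper left and lower right blocks hold the higher side, and within the upper left block LGALS4, HEPH and MYO7B differ most among the 3 libraries.

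Mucins and trefoil peptides differed among the 3 libraries. MUC13 was 336, 247 and 219 CPM, against 87.4 CPM in FLO-1 and under 1 CPM in the other 5. MUC17, a membrane mucin of the intestine, was 607, 9.61 and 1.47 CPM in OE19, SK-GT-4 and ESO-51, with at most 0.227 CPM elsewhere. MUC3A, a near neighbour with similar repeats whose reads could be shared with MUC17, was 5.81, 3.47 and 4.69 CPM against at most 2.33 CPM. The gel-forming mucin MUC5B was 1901, 1914 and 0.400 CPM in OE19, SK-GT-4 and ESO-51, and JH_EsoAd1 held 114 CPM. The trefoil peptide TFF3 was 3.67, 89.8 and 1.09 CPM against at most 0.149 CPM.

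MUC16, the CA125 antigen, lay the other way, at 0.107, 0.0322 and 0.0222 CPM in the 3 libraries and 0.679 to 458 CPM in the other 6. Of 10 measured mucins and trefoil factors 2 were called higher (0.348% of all genes) and none lower. Of those called, MUC17 was measured through the 3 HNF4A-high libraries alone. The median difference of the list was 1.93, but 1.24 without SK-GT-4 and 0.60 over all 16 members with a count. In the list of 10 measured gastric genes the median was 2.93, yet none was called and no member separated the sides. This median was 1.17 without SK-GT-4, 4.68 without ESO-51, and 1.10 over all 24 members with a count. The score of the gastric list was -0.11 in OE19, 2.87 in SK-GT-4 and -0.40 in ESO-51, and -0.90 to 0.07 in the other 6, so only SK-GT-4 of the 3 lay outside their range. ANXA10, an annexin of gastric mucosa, was 149, 334 and 0.0667 CPM, and AKR1B10, an aldo-keto reductase, 101, 1521 and 1.33 CPM.

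Genes of metabolism and transport were higher in all 3 libraries in single cases. HEPH, the iron oxidase hephaestin of enterocytes, was 25.4, 30.2 and 238 CPM against at most 0.187 CPM (FLO-1). DDC, the decarboxylase that makes dopamine and serotonin, was 41.4, 82.4 and 92.0 CPM against at most 2.80 CPM (FLO-1). HGD, an enzyme of tyrosine breakdown, was 17.6, 117 and 86.5 CPM against at most 7.68 CPM, and ALDH2, mitochondrial aldehyde dehydrogenase, 145, 178 and 105 CPM against at most 31.9 CPM. ACE, the angiotensin-converting enzyme, was 16.0, 27.5 and 15.7 CPM against at most 6.74 CPM.

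Drug and steroid metabolism genes had a median difference of 2.25 over 19 measured members, with 1 called higher (0.348% of all genes), 2 not overlapping upward (2.29% of all genes) and none called lower. The median was 3.64 without ESO-51, 1.59 without SK-GT-4, and 1.35 over all 42 members with a count. CYP4F3, a fatty acid hydroxylase with near-identical CYP4F neighbours that could share reads, was 40.4, 240 and 38.8 CPM against at most 17.6 CPM. UGT1A1, a glucuronosyltransferase, was 3.28, 4.98 and 7.36 CPM against at most 2.12 CPM, and its exons are shared in part with UGT1A6, at 24.0, 136 and 154 CPM against 26.3 CPM in FLO-1. ALDH1A1, which makes retinoic acid, was 881, 5.27 and 3803 CPM, lowest in SK-GT-4.

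Transport genes had a median of 1.79 over 22 measured members, and 1.42 over all 31 with a count. SLC22A18, a membrane transporter, was the 1 member called (0.348% of all genes), at 49.5, 67.6 and 41.6 CPM against at most 19.0 CPM. In this list 6 did not overlap upward (2.29% of all genes). SLC9A3R1, the brush border scaffold NHERF1, was 141, 135 and 64.8 CPM against at most 43.3 CPM. The iron exporter SLC40A1 was 0.428, 265 and 41.7 CPM, lowest in OE19. Bile acid handling genes, 8 measured, had a median of 0.40 (0.22 without FLO-1, 0.99 without SK-GT-4 and 1.14 without OE19) with none called, although the exporters ABCC2 (58.2, 127 and 33.2 CPM against at most 26.4 CPM) and ABCC3 (531, 981 and 448 CPM against at most 334 CPM) did not overlap.

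Of 33 listed liver-type secreted proteins 6 reached 1 CPM in 3 libraries, their median difference was -0.04, and none was called. The sign of that median turned without SK-GT-4 (0.36), ESO-51 (0.51), OAC_5.1_C (0.19) or JH_EsoAd1 (0.67). The clotting factor gene F12 was 31.5, 10.7 and 8.47 CPM against 9.76 CPM in OACP4_C. Of 26 lipoprotein and lipid absorption genes 9 were measured, with a median of 0.99 and none called. The median was -0.072 without OE19, 0.25 without ESO-26, 0.31 without OE33, 0.43 without ESO-51, and 0.36 over all 26 members with a count. APOE was 0.499, 12.5 and 2.22 CPM in the 3 libraries and 0.535 to 73.8 CPM in the other 6. DGAT1, which completes triglyceride synthesis, did not overlap, at 71.2, 84.2 and 83.4 CPM against at most 66.8 CPM. Sugar and amino acid metabolism, 10 measured genes, had a median of 0.44 (0.23 without ESO-51, 0.28 without OE33, 0.72 without OE19, and 0.05 over all 27 with a count) and none called.

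RNF43, a ubiquitin ligase that removes Wnt receptors and is itself a Wnt target, was 84.7, 134 and 162 CPM against at most 11.5 CPM (OACP4_C), a gap of 2.78. AXIN2, another negative feedback target, was 11.7, 110.5 and 34.9 CPM against at most 8.08 CPM (JH_EsoAd1), a gap of 0.48. ZNRF3, the paralogue of RNF43, was 36.7, 40.2 and 66.7 CPM against at most 30.5 CPM. NOTUM and the stem cell factor ASCL2 were low in OE19, with NOTUM at 1.21, 87.4 and 18.6 CPM and ASCL2 at 0 counts, 21.2 and 70.9 CPM. Of 15 measured Wnt and stem cell genes 1 was called higher (0.348% of all genes), 3 did not overlap upward (2.29% of all genes) and none was called lower. The median difference was 1.20, and 1.23 over all 21 members with a count.

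Receptor tyrosine kinases had a median of 0.36 over 18 measured members and 0.06 over all 22 with a count, and none was called. The median was 0.10 without SK-GT-4, 0.16 without OE33, 0.74 without FLO-1 and 0.81 without ESO-51. ERBB3, the partner of ERBB2, did not overlap, at 726, 511 and 280 CPM against at most 154 CPM (OACP4_C). FGFR4 was 39.5, 71.3 and 88.3 CPM against at most 34.7 CPM (ESO-26). The hepatocyte growth factor receptor MET did overlap, at 12506, 180 and 232.5 CPM against 57.7 to 6323 CPM. IHH, the hedgehog ligand of gut epithelium, was called higher, at 25.2, 47.1 and 4.49 CPM against at most 0.293 CPM, and IL22RA1, the epithelial receptor of interleukin 22, at 23.4, 29.0 and 20.1 CPM against at most 4.07 CPM.

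Epithelial junction genes, 38 measured, had a median of 0.91 with 1 called higher (0.348% of all genes) and none called lower. The median was 0.28 without ESO-26, 0.34 without SK-GT-4, 0.53 without OE33, 0.58 without ESO-51 and 1.60 without OE19. The called member was EPS8L3, an actin regulator, at 294, 92.6 and 89.3 CPM against at most 13.5 CPM (FLO-1). E-cadherin (CDH1) was 77.8, 546 and 495 CPM, which overlapped 0.173 to 453 CPM on the other side. The list's score was -0.29 in OE19, 1.66 in SK-GT-4 and 0.99 in ESO-51, and -3.33 to 1.80 in the other 6. KRT7, a simple epithelial keratin, was 445.5, 2.38 and 11.4 CPM, against 0.867 to 1649 CPM.

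Further genes called higher covered other roles. SNTB1, a syntrophin, was 105, 314 and 157 CPM against at most 14.8 CPM, and POF1B, an actin-binding epithelial protein, 270, 349 and 160 CPM against at most 44.8 CPM. RASSF6 was 97.5, 53.4 and 72.7 CPM against at most 16.9 CPM, PRR15L 55.9, 147 and 212 CPM against at most 27.1 CPM, and SYT7, a synaptotagmin, 32.8, 51.3 and 54.9 CPM against at most 5.28 CPM. GPR35 was 35.3, 42.6 and 54.2 CPM against at most 12.5 CPM (FLO-1). Others called higher included ACSM3, TLDC2, GAL3ST1, BAIAP2L2, RAB40B, AKR7A3, NOSTRIN, GLYCTK, DEGS2, TM4SF4, METTL7B, TMEM150B, MYO15B, MIR194-2HG, AC124067.4, LINC01978 and LINC01979, besides those named within the 3 below. MIR194-2HG is the host transcript of intestinal microRNAs, whose mature forms were not measured, and stood at 2.82, 5.95 and 8.45 CPM against at most 0.307 CPM. Reads of AKR7A3 could be shared with its close paralogue AKR7A2.

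Of the 55 genes called higher, 51 were protein-coding, and 17 were under 1 CPM in each of the other 6. FLO-1 was the nearest of the other 6 for 28 of them and OACP4_C for 10, while within the 3 the lowest library was ESO-51 for 27, OE19 for 18 and SK-GT-4 for 10. They came from 18 chromosomes. Chromosome 17 held 8 of the 55 (14.5%, against 5.43% of all genes tested), among them LINC01978 and LINC01979.

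**Figure D4:**
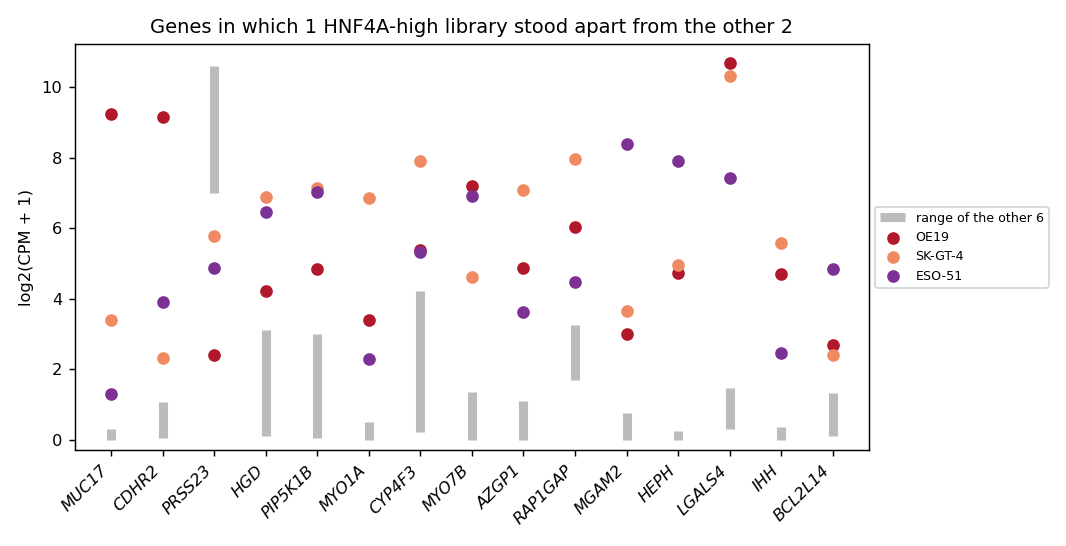
Level, as log2(CPM + 1), in the 3 HNF4A-high libraries (points) and the range of the other 6 (grey bars) for the 15 called genes in which 1 of the 3 stood farthest from the other 2. OE19 was far above both others in MUC17 and CDHR2, SK-GT-4 in MYO1A, and ESO-51 in MGAM2.

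Called genes still differed widely among the 3 libraries. OE19 stood apart upward in MUC17, by 5.84 log2 units from the next of the 3, and in CDHR2, by 5.24. It stood below both others in HGD, in PIP5K1B, a lipid kinase (27.5, 139 and 130 CPM), and in PRSS23. SK-GT-4 stood apart upward in MYO1A, CYP4F3, the secreted glycoprotein AZGP1 (28.6, 136 and 11.4 CPM) and RAP1GAP, which switches off the GTPase RAP1 (64.0, 250.5 and 21.2 CPM), and downward in MYO7B. ESO-51 stood apart upward in MGAM2, a relative of the brush border enzyme maltase-glucoamylase with which it could share reads, at 7.06, 11.7 and 333 CPM. HEPH and BCL2L14 (5.38, 4.34 and 27.6 CPM) were also highest in ESO-51, while LGALS4 and IHH were lowest there.

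The genes called lower were fewer. RAB34, a small GTPase of ciliogenesis and vesicle transport, had the widest gap, at 0.143, 0.386 and 0.133 CPM in OE19, SK-GT-4 and ESO-51, and from 66.6 CPM (ESO-26) to 149 CPM (OAC_5.1_C) in the other 6. Its log2 mean was 0.28 ± 0.16 (SD, n = 3) against 6.82 ± 0.55 (SD, n = 6), and the sides lay 5.61 apart. CYP24A1, which inactivates vitamin D, was 0.321, 0.161 and 0.0889 CPM against 13.8 to 148 CPM. The vitamin D receptor gene VDR was not low, at 20.6, 63.5 and 69.5 CPM against 1.61 to 33.8 CPM.

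MITF, a transcription factor best known in pigment cells, was 0.0713, 0.418 and 0.867 CPM against 12.3 to 32.0 CPM. FERMT2, the integrin activator kindlin-2, was 0.249, 0.0322 and 1.07 CPM against 12.6 to 122 CPM. CCN1, a matrix protein induced by YAP, was 1.71, 1.61 and 3.07 CPM against 11.3 to 499 CPM. The protease gene PRSS23 was 4.31, 54.4 and 28.0 CPM against 127 to 1544 CPM.

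The dermatan sulphate enzyme gene DSE was 1.46, 0.257 and 2.85 CPM against 13.8 to 218 CPM, and CERCAM 3.14, 5.18 and 6.03 CPM against 32.8 to 100 CPM. CMBL, a hydrolase, was 0.143 CPM, 0 counts and 1.05 CPM against 6.29 to 67.3 CPM, and ADGRL2, an adhesion receptor, 0.0713, 0.0965 and 1.31 CPM against 6.35 to 270 CPM. Others called lower included DNAH5, LTBP2, BCAS4, MAP1B, SLF1, SSBP2, ARHGEF40, PRTG, PKIG, CHST11, FZD2 and MT1X, the last a metallothionein whose reads near-identical copies could share.

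All 24 genes called lower were protein-coding, and 6 were under 1 CPM in each of the 3 libraries. ESO-51 was the highest of the 3 for 13 of them. ESO-26 was the lowest of the other 6 for 9. Chromosome 5 held 5 of the 24 (20.8%, against 4.23% of all genes tested), namely CMBL, DNAH5, MAP1B, SLF1 and SSBP2. Chromosome 14 held 4 (16.7%, against 3.02%), among them FERMT2 and LTBP2.

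Lists of genes that mark other epithelial or mesenchymal states lay lower in their medians with few calls. Of 23 measured mesenchymal genes none was called and 3 did not overlap downward (2.12% of all genes). These 3 were the repressor ZEB2, the actin-binding protein CALD1 and the collagen cross-linker LOXL2. The median difference of the list was -1.73, or -1.12 without ESO-51. Fibronectin (FN1) was 1.14, 4.598 and 8.52 CPM, which overlapped OE33 (4.22 CPM) and FLO-1 (8.05 CPM). The caveolin gene CAV1 was 195, 1.19 and 0.511 CPM, highest in OE19, and the receptor AXL was 65.4, 3.22 and 1.07 CPM. The list's score was -0.54 in OE19, -1.14 in SK-GT-4 and -1.18 in ESO-51, and -0.82 to 1.31 in the other 6.

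Among 22 YAP targets, all measured, 1 was called lower (0.152% of all genes), namely CCN1, and none was called higher. The median was -1.18, or -0.70 without OAC_5.1_C. TGFB2 was 0.891, 0.161 and 0.578 CPM against 0.288 to 440 CPM. Squamous and basal genes, 16 measured, had a median of -1.17 and none called. This median was -0.41 without JH_EsoAd1, and -0.25 over all 30 members with a count. The basal regulator TP63 was at most 0.321 CPM in the 3 libraries, and 0 counts in OACP4_C, ESO-26 and OE33, but 292 CPM in JH_EsoAd1 and 7.95 CPM in FLO-1.

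Genes of cell division and cholesterol synthesis had medians below that of all genes. None of 34 measured mitosis and DNA replication genes was called, and 3 did not overlap downward (2.12% of all genes). The median difference was -0.70, or -0.32 without OE19. CCNB1, the mitotic cyclin, was 40.9, 55.1 and 105 CPM against 142 to 339 CPM. The list's score was -1.31 in OE19, 0.05 in SK-GT-4 and -0.21 in ESO-51, and -0.18 to 0.64 in the other 6. Of 19 cholesterol synthesis genes none was called and 2 did not overlap downward (2.12% of all genes). The median of the 19 was -0.61, or -0.23 without ESO-51. Scores of the cholesterol list were 0.21 in OE19, -0.22 in SK-GT-4 and -1.18 in ESO-51, and -0.50 to 1.04 in the other 6. Only ESO-51 of the 3 thus lay below their range. HMGCS1, an early enzyme of the pathway, was 42.9, 76.8 and 50.9 CPM against 95.02 to 665 CPM.

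Other lists gave no division. Interferon response genes, 25 measured, had a median of 0.00 (-0.94 without ESO-51 to 0.57 without SK-GT-4) and scores of -0.29, -2.01 and 1.72 in OE19, SK-GT-4 and ESO-51, and none was called. HOX genes, 19 measured, had a median of -0.50 and none called. That median was -0.86 without OE19, -0.25 without SK-GT-4, -0.24 without OACP4_C, 0.02 without ESO-51 and 0.10 without OE33. Terminal glycosylation genes, 22 measured, had a median of 0.62 and none called. It was -0.34 without SK-GT-4, 0.36 without ESO-26, 1.39 without OE19, and 0.25 over all 25 members with a count. For haematopoietic, endothelial and fibroblast lists only 2, 1 and 1 members reached the minimum level.

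**Figure D5:**
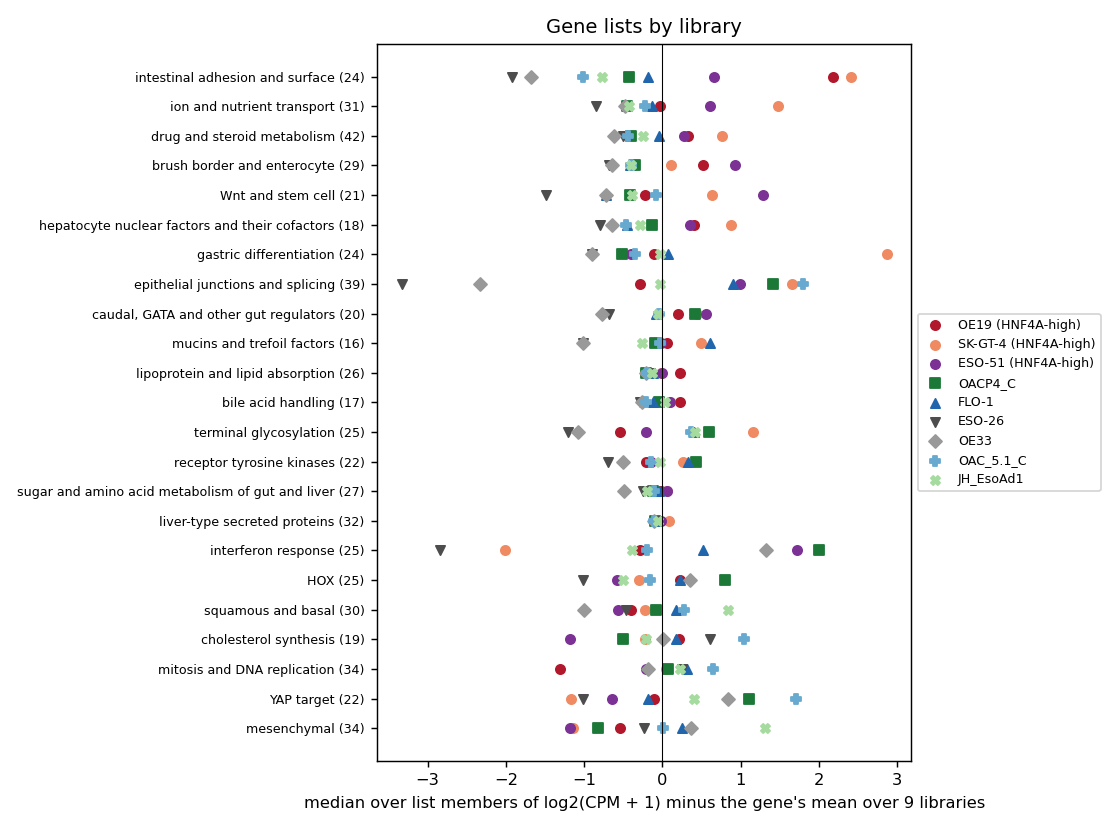
Score of each gene list (the median over its members with a count, number in brackets, of log2(CPM + 1) minus the gene's mean over 9 libraries) on the horizontal axis, 1 point per library, with lists in order of their median difference. The brush border list has the 3 HNF4A-high libraries at 0.12 to 0.92 and the other 6 at -0.68 to -0.35, while the gastric list spans -0.40 to 2.87 within the 3.

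Across the 9 libraries, the genes whose log2 level was most like that of HNF4A by Pearson r were RAPGEF4 (r = 0.988), ZFP3 (0.954), POF1B (0.951), ALDH2 (0.949) and RPS6KA1 (0.945). These correlations describe 9 libraries that fall into separate sides and carry no test. RAPGEF4, an exchange factor for RAP1 that is activated by cyclic AMP, was 7.24, 7.23 and 9.25 CPM in the 3 libraries, 3.22 CPM in JH_EsoAd1 and 2.93 CPM in FLO-1, and at most 1.01 CPM in the rest. RPS6KA1, a ribosomal S6 kinase, was 164, 189 and 145 CPM against at most 70.5 CPM, and was called higher.

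Near HNF4A on chromosome 20, by the order of RefSeq genes, the 6 protein-coding genes on either side were examined. GDAP1L1, R3HDML and CCN5 did not reach 1 CPM in 3 libraries and could not be called. None of the rest was called higher. PKIG, an inhibitor of protein kinase A and the third protein-coding gene after HNF4A, was called lower, at 0.107 CPM, 0 counts and 3.05 CPM against 8.997 to 19.4 CPM. ADA, adenosine deaminase and the next gene, did not overlap downward, at 9.12, 5.21 and 7.76 CPM against 12.9 to 73.4 CPM. Over all genes 0.152% were called lower and 2.12% did not overlap downward. TTPAL and SERINC3, which lie between HNF4A and PKIG, overlapped, as did OSER1 and FITM2 on the other side.

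Promoters in the RefSeq table were matched for 41 of the 55 genes called higher and 18 of the 24 called lower. Since 41 of 55 is under 80%, a comparison of the set with other genes is void, and the shares are given as a description. Within 250 bases before to 50 after the gene start, on both strands, CAAAGTCCA stood in 3 of the 41 (7.32%), in 0 of the 18, in 0.482% of 11007 promoters of tested genes and in 0.473% of all 27295 promoters. The looser CAAAGNNCA, of which CAAAGTCCA is a case, stood in 11 of the 41 (26.8%), in 1 of the 18 (5.56%), and in 5.45% and 6.44% of the larger sets. The 11 were HEPH, TLDC2, BCL2L14, DDC, MYO1A, MUC17, MUC13, ANKS4B, GPR35, CLRN3 and EPS8L3. For comparison, the core TTTATNG of caudal factors, chosen after seeing the data, stood in 5 of the 41 (12.2%), in 4 of the 18 (22.2%), in 8.69% of promoters of tested genes and in 11.9% of all promoters.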

How the data were processed

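RNA from 9 cell lines was sequenced, 1 count column each. The submitters' processing notes name GRCh37, FastQC 0.11.7, the aligner STAR 2.6.1d and R 3.6.1. The counting program, annotation and strand setting are not given in the sources used here. The authors' deposited table holds raw whole-number counts for 52158 genes. Files of each line hold counts and the authors' FPKM, per the file headers, and 35579 of 35585 symbols with an identifier had equal counts in both. The equal counts cover matched symbols only, since the files hold many counts that lie outside the table. Of each file's counts, 25.8% lay outside for OE19, 37.2% for SK-GT-4 and 40.6% for ESO-51. In the other libraries the share was 25.8% (ESO-26) to 77.3% (JH_EsoAd1), with 51.0% in FLO-1, so the sides overlapped. The cause was not tested, and CPM was scaled to the table's totals. A row with a blank name (0.00485% to 0.00965% of counts) was left out.

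Counts were scaled with TMM (edgeR 4.0.16, R 4.3.3) and used as log2(CPM + 1), for genes at 1 CPM or more in at least 3 libraries. Other steps used Python 3.11.15 (pandas 2.3.3, numpy 2.4.6, matplotlib 3.10.9, scipy 1.17.1). The separation rule was run on simulated counts with the same low scatter for every gene. That run checks the code and not how the rule behaves for different cell lines. With 1 library per line and sides chosen by HNF4A, no test was made. Members and the 26 gene lists (643 symbols, 4 not matched) were chosen with earlier results of these data known. Genes named by rule were the called list members and, in lists with fewer than 3, up to 3 with the largest difference, the 12 highest and 10 lowest protein-coding genes by gap, 5 per library apart within the 3, and 5 most like HNF4A. Others were chosen with their values in view. A few genes selected this way are not reported here. Alternatives were DESeq2 1.42.0 size factors, library size, other filters, pseudocounts and gaps, the deposited FPKM (pseudocount 0.1, FPKM of at least 0.5 in at least 3 libraries), and leaving libraries out. List scores take all members with a count, a choice made after seeing the data. Names, biotypes and promoters came from RefSeq (GRCh38.p14), another build than the counts.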

Additional observations from a re-analysis of the deposited data

Results flagged for a closer look

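Among 49 values examined over the other 6 libraries, 6 had 1 library far from its neighbours. There the gap to the nearest divided by the range exceeded Dixon's critical value for 6 samples. For normal values chance flags about 1 in 20, a rate that does not carry over here. Of the 49 values, 23 were HNF4A and genes picked for wide gaps, some with few counts in these 6 libraries. USH1C was highest in OE33 at 2.83 CPM (ratio 0.660). FLO-1 was highest in GPA33 at 0.373 CPM (0.823), HEPH at 0.187 CPM (0.672) and DDC at 2.80 CPM (0.654). All of these levels lay below each of the 3 HNF4A-high libraries. CMBL was lowest in ESO-26 at 6.29 CPM (0.626), still above the 3. The score of the hepatocyte nuclear factor list, over its 13 measured members, was highest in OACP4_C at 0.25 (0.673), next to OE19 at 0.34, and OACP4_C was also the highest of the other 6 for HNF4G and PPARA.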

How the results depend on the processing

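Over 17 other settings at the same gap, 24 of the 55 higher calls and 4 of the 24 lower calls were kept in every setting. MYO1A and MUC17 were kept in 11 settings and IHH in 12. DESeq2 size factors gave the same 55 and 24 calls. With library size alone there were 62 higher (52 shared) and 21 lower (20 shared), with deposited FPKM 56 (43 shared) and 14 (11 shared). A pseudocount of 5 left 33 and 9 and a gap of 2 left 22 and 6, whereas any gap gave 362 and 334. Without ESO-26 and OE33 there were 65 and 97. Leaving out each library gave 58 to 108 higher and 26 to 73 lower; without 1 of the 3, 38 of the 55 remained, since the 17 under 1 CPM in the other 6 are then below the minimum of 3 libraries.

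List medians moved as follows. With no filter: brush border 1.33, lipoprotein 0.36, mucins 0.60, drug metabolism 1.35. At 5 CPM: liver-type 1.54, bile acid 2.64. With a pseudocount of 5: gut regulators 0.64, brush border 2.17, lipoprotein 0.45; of 0.5: brush border 4.02. With FPKM: gut regulators 2.24, brush border 3.82, liver-type 0.94, bile acid 2.62, sugar and amino acid 1.30, receptor kinases 1.26. Without ESO-26 and OE33: gut regulators 0.66, lipoprotein 0.18. By medians: brush border 3.07, lipoprotein 0.35, liver-type 0.92. Leaving out each library: brush border 2.43 to 3.66, intestinal surface 1.39 to 3.04, lipoprotein -0.072 to 1.20, bile acid 0.22 to 1.14, drug metabolism 1.59 to 3.64, liver-type -0.33 to 0.67, gastric 1.17 to 4.68, mucins 1.24 to 2.09, glycosylation -0.34 to 1.39, junctions 0.28 to 1.60, HOX -0.86 to 0.10, squamous -1.54 to -0.41, mitosis -0.98 to -0.32.

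Median r within the 3 and between sides was 0.915 and 0.910 with no filter, 0.711 and 0.681 at 5 CPM, and 0.708 and 0.690 with FPKM; leaving out each library gave 0.790 to 0.837 within the 3. The looser motif gave 26.8%. Among genes still tested, leaving a library out can add calls but cannot remove them. The cause of the other shifts was not tested. No paired analysis was possible because each line has 1 column and the lines share no numbering.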
